A study of Mus musculus with 2 samples.

Results

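A set of 10 genes of epithelial identity was followed in the DNA methylation of mouse C3H myotubes: E-cadherin (Cdh1), Epcam, the splicing regulators Esrp1 and Esrp2, the transcription factor Grhl2, the keratins Krt8, Krt18 and Krt19, and the claudins Cldn4 and Cldn7. The 10, of 55413 annotated genes, were chosen by name, and their CpG cytosines were kept where they had at least 5 reads in each library and lay outside the recognition sites of the enzymes used to make the libraries (CCGG for MspI, TCGA for TaqαI). There were 920 such cytosines, at 520 CpGs, of 1850635 in all. They divided into 396 in TSS windows, within 1000 bp of the gene start, and 524 in the rest of the genes, called gene bodies here.

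C3H myoblasts from a commercial supplier were differentiated in low-serum medium into myotubes, the multinucleate cells of cultured muscle, and were transfected with a control siRNA (siCon) or with an siRNA against the long noncoding RNA H19 (siH19). Genomic DNA was taken 48 h after transfection and profiled by reduced representation bisulfite sequencing, which reads CpG-rich restriction fragments after bisulfite has turned unmethylated cytosine into uracil. There was 1 library per group, so every test below compares 2 libraries and not 2 conditions, and a difference between the cultures cannot be told apart from the knockdown. The libraries covered 5453019 cytosines in siCon and 5266846 in siH19, with 104999613 and 106372792 reads summed over cytosines, and at the cytosines of the 10 genes the median depth was 21 and 20 reads. The files hold DNA methylation only, so neither the loss of H19 RNA nor the muscle identity of the cells could be checked by expression. The TSS windows of the muscle markers had levels in siCon of 3.98% for Des, which encodes the muscle intermediate filament desmin, 2.70% for Ckm, muscle creatine kinase, and 72.7% for Myog, a muscle differentiation factor, and these name no cell type.

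In epithelia, E-cadherin holds neighbouring cells together at adherens junctions, claudins seal the tight junctions, and Krt8 pairs with Krt18 or Krt19 in the filaments of simple epithelia. Grhl2 switches on many of these genes, while Zeb and Snai repressors bind E-box motifs in several of their promoters in mesenchymal cells. CpG islands at gene starts are mostly unmethylated whether or not the gene is used, and dense methylation there is usually found at silent genes. Skeletal muscle is a mesodermal tissue without epithelial junctions, although Krt8 and Krt19 protein is also known from the costameres of striated muscle.

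Promoters from RefSeq (build GRCm38.p6), running from 250 bases before to 50 after the start, were matched for Cldn4, Cldn7, Krt8, Krt18 and Epcam, with both starts of Cldn7. The 4 with measured CpGs are shown because they place single levels on the sequence. Each is written 5′ to 3′ on the strand of the gene, and capitals mark the CpGs that were measured in both libraries outside CCGG and TCGA. Krt18 lies on the plus strand at chr15:102027966-102028265, Krt8 on the minus strand at chr15:102004293-102004592, Cldn4 on the minus strand at chr5:134946885-134947184, and the downstream start of Cldn7 on the plus strand at chr11:69965171-69965470.
Krt18: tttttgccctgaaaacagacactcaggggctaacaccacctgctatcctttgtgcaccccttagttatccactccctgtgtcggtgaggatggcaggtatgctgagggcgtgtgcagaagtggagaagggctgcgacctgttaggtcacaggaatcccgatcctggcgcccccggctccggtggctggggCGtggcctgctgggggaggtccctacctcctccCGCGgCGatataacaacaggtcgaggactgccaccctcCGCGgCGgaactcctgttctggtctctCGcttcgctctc
Krt8: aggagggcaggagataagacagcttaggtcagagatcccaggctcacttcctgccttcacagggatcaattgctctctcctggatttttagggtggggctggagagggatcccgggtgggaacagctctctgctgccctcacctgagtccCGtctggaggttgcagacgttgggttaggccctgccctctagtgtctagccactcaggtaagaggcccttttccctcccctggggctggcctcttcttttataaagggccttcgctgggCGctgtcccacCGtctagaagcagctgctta
Cldn4: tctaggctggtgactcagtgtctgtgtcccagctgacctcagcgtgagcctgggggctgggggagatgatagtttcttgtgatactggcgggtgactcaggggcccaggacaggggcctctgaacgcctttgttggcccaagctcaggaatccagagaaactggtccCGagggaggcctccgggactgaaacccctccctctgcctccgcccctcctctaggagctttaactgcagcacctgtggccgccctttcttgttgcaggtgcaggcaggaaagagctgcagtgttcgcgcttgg
Cldn7: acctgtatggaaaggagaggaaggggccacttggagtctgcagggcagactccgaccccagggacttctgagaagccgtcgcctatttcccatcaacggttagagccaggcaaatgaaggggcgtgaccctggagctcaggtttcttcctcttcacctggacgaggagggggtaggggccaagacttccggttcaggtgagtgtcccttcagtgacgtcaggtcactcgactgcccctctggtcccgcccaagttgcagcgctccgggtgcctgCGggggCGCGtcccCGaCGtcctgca

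The promoters differed in how evenly they were methylated. In Krt18, the 2 CpGs 27 and 25 bases before the RefSeq start had 19.4% and 22.2% methylated reads in siCon and 38.5% and 34.3% in siH19, on 31 and 27 reads in siCon and 78 and 70 in siH19. The 4 CpGs from 11 to 38 bases after that start were between 96.7% and 100% in siCon and between 97.8% and 100% in siH19. The other 2 measured CpGs before the start, 60 and 22 bases from it, were at 68.8% and 75% in siCon and at 75.6% and 63.4% in siH19. Within this promoter the measured CpGs of Krt18 were thus mixed before the RefSeq start and near complete after it, in both libraries. Those 27, 25 and 22 bases before it lie after the gene start used for the windows. Further into the gene levels were mixed again, with 38.9% in siCon and 52.8% in siH19 at 102028422. The cytosine at 102028429 had 98.2% and 94.3%. The 3 measured CpGs of Krt8 were at 94.1%, 96.4% and 97.6% in siCon and at 93.5% to 97.8% in siH19. The single measured CpG of Cldn4, 83 bases before its start, was at 17.9% in siCon and 13.3% in siH19, far below the CpGs inside the gene described below. The 5 CpGs of Cldn7 ranged from 11.3% to 59.7% in siCon and from 10.3% to 44.8% in siH19 although they lay 24 to 41 bases after that start. The letters CACCTG, an E-box, were searched on both strands and occurred in 5 of the 6 matched promoters, all but the upstream one of Cldn7, against 20.2% of 32851 RefSeq promoters of the same length. The letters AACCGGTT, a Grainyhead motif, occurred in none of the 6 and in 0.146% of all, and neither count says whether a factor binds.

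**Figure D1:**
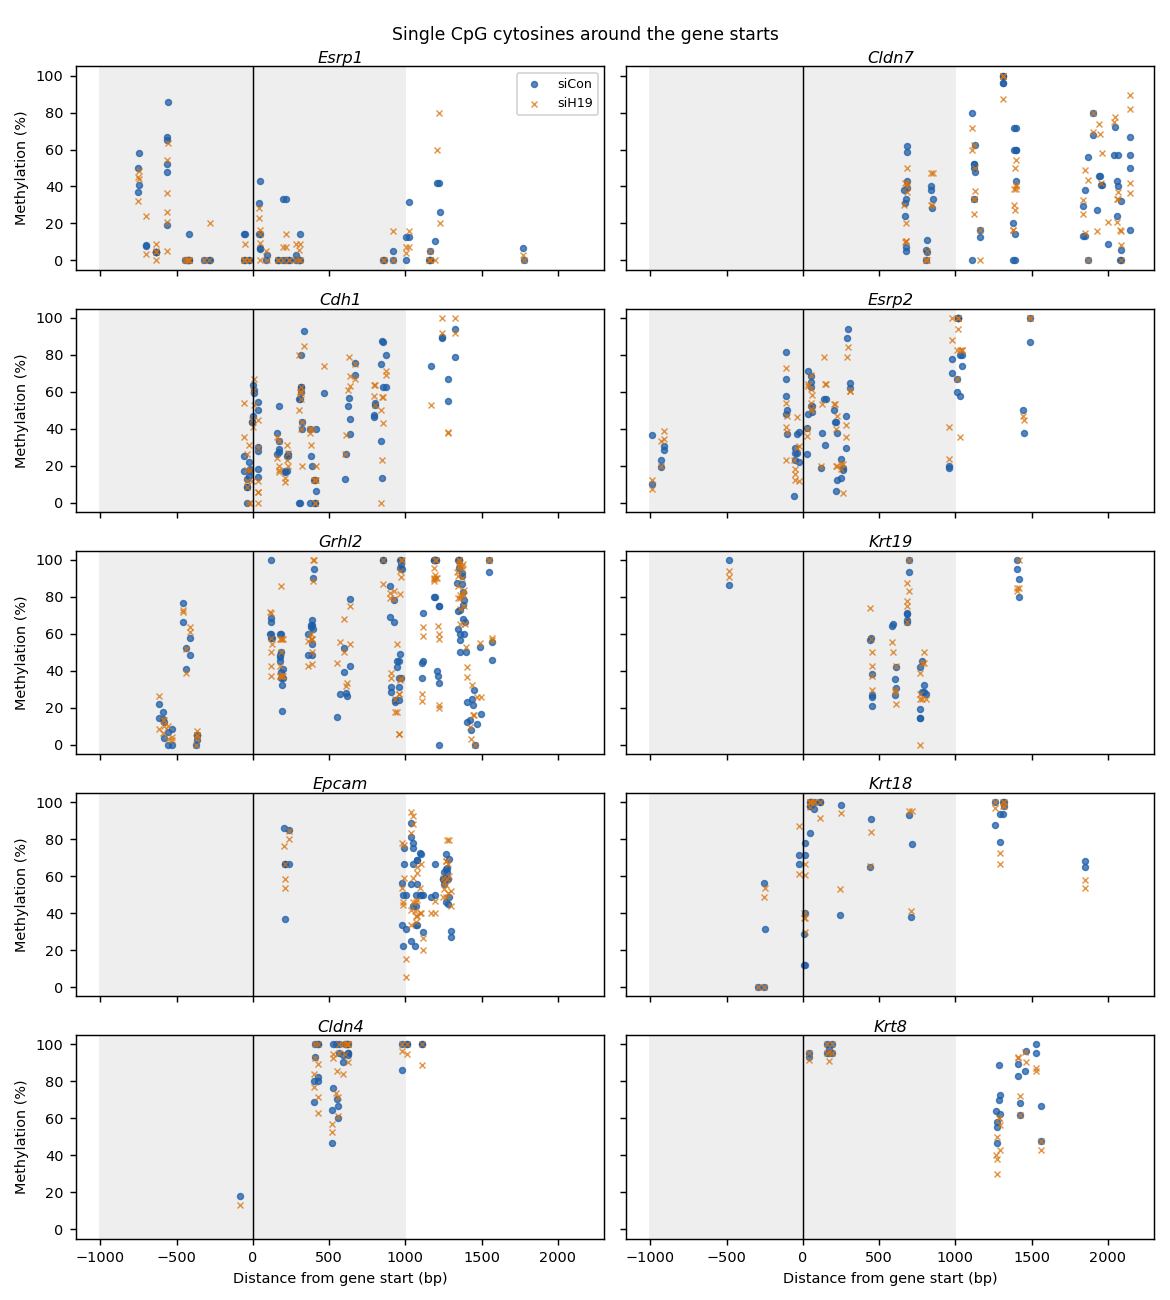
Methylation (%) of single CpG cytosines against the distance from the gene start (bp), for the 10 genes in order of TSS window level, with circles for siCon, crosses for siH19 and the window of 1000 bp either side shaded. Esrp1 has most cytosines of its window below 20%, Krt8 is above 90% at every measured cytosine of its window, and Cdh1, Esrp2, Grhl2 and Epcam spread over most of the scale in both libraries.

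The TSS windows of the epithelial genes were methylated above those of most genes in these myotubes, in both libraries. A window level does not describe the start itself in every gene. No measured cytosine lay closer to the start than 207 bp in Epcam, 443 bp in Krt19 and 666 bp in Cldn7. In Cldn4 the 1 cytosine within 250 bp had 17.9% in siCon and 13.3% in siH19. In siCon the TSS window levels, read as methylated reads over all reads of the window, ranged from 15.5% in Esrp1 to 96.4% in Krt8 with a median of 45.3%. In siH19 they ranged from 12.4% to 95.6% with a median of 46.0%. The median over all 19676 windows measured was 3.77% in siCon and 3.74% in siH19. A level of at least 25% was found in 9 of the 10 windows in siCon and in 27.1% of all windows. The exception was Esrp1, at percentile 66.0 of all windows. The others lay from percentile 74.5 for Cldn7 to 99.0 for Krt8. Gene bodies did not stand out in the same way, with a median of 63.9% over the 9 measured genes and 57.6% over 17670 genes in siCon.

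The windows of Cdh1, Esrp2, Grhl2 and Epcam are CpG-rich (GC content of 50% or more, with CpGs at 0.6 or more of the number that base composition predicts). Among the 8099 windows of this kind, whose median was 1.22%, they lay at percentiles 95.8, 96.0, 96.7 and 98.1. The other 6 windows had fewer CpGs than 0.6 of the predicted number. They belong to the class of all remaining windows, 11577 with a median of 13.6%. In that class Esrp1 was at percentile 51.8 and Krt8 at percentile 98.3. The place of Esrp1 depends on the limit, which its window missed narrowly at 0.579. Among the CpG-rich windows only 18.1% had a level of at least 10%, so the 15.5% of Esrp1 would rank higher there. Single cytosines of the 10 windows were mostly partly methylated: 224 of 396, or 56.6%, had a level from 20% to 80% in siCon, and 226 in siH19. Over all genes 13.1% of 810472 window cytosines were in that range and 82.3% were below 20%.

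**Figure D2:**
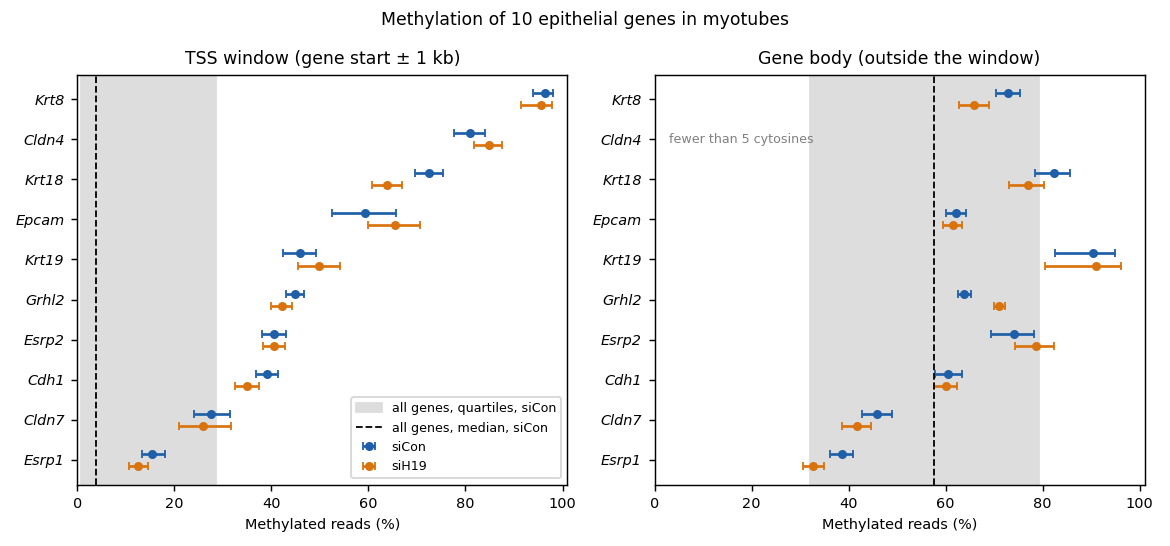
Methylated reads (%) in the TSS window and in the gene body of each gene, with Wilson 95% intervals, in siCon and siH19; the dashed line and grey band are the median and quartiles of all genes in siCon. In the windows 8 of the 10 genes lie above the grey band in both libraries, and in the bodies the genes lie on both sides of the median of 57.6%.

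Cdh1, the adherens junction cadherin (chr8:106603351-106670246, plus strand), had 39.1% methylated reads in its TSS window in siCon (Wilson 95% interval 36.8 to 41.4, 1703 reads at 76 cytosines) and 34.9% in siH19 (32.5 to 37.4, 1501 reads). The intervals cover counting error only, here and below, and a read is counted at every cytosine that it spans. A CpG island computed from the sequence spanned 57 bp before to 673 bp after the start, and had 36.6% in siCon and 32.4% in siH19. Methylation was higher further into the gene. Within 250 bp of the start it was 30.6% in siCon and 24.6% in siH19, and more than 250 bp downstream within the window it was 47% and 50.4%. The body had 60.6% and 60.0%, and a cluster in an exon near the 3′ end, 62919 to 62939 bp from the start, was low at 30.1% and 26.5%.

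Epcam, a surface adhesion glycoprotein (chr17:87635979-87651129, plus strand), was measured at 12 cytosines of its window, none closer than 207 bp to the start. The window had 59.3% in siCon (52.6 to 65.8, 209 reads) and 65.5% in siH19 (60.0 to 70.6, 307 reads). Its first intron held an island, 438 to 1304 bp from the start, with 56.1% on 1313 reads in siCon and 57.3% on 1389 in siH19. A further island, 4258 to 4539 bp from the start, had 95.4% and 92.9%. The 2 islands of this gene thus differed by far more than the libraries did.

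Esrp1, which directs epithelial patterns of alternative splicing (chr4:11331933-11386783, minus strand), was the least methylated of the 10. Its window had 15.5% in siCon (13.2 to 18, 892 reads) and 12.4% in siH19 (10.6 to 14.5, 1080 reads). The methylation lay upstream: 29.1% and 24.9% more than 250 bp before the start, 6.53% and 5.19% within 250 bp of it, and 1.48% and 3.60% more than 250 bp after it. Within 250 bp of the start single cytosines reached 42.9% in siCon. The body had 38.5% in siCon and 32.7% in siH19. Its paralogue Esrp2 (chr8:106130319-106136974, minus strand), with the same kind of function, had 40.5% in siCon (38.0 to 43.0, 1502 reads) and 40.6% in siH19 (38.3 to 42.8, 1815 reads) in its window. Esrp2 had 44.2% and 45.5% within 250 bp of the start, where Esrp1 was below 7% in both libraries. The Esrp2 body was at 74.0% and 78.6%. The noncoding gene 1810019D21Rik overlaps the Esrp2 window, so those cytosines belong to both genes.

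Grhl2, the Grainyhead-like activator of epithelial genes (chr15:37233036-37363569, plus strand), had the most cytosines, 82 in the window and 182 in the body. The window had 44.8% in siCon (42.9 to 46.7, 2601 reads) and 42.1% in siH19 (40.0 to 44.3, 1951 reads). Levels were higher downstream than upstream, with 20% and 21.1% more than 250 bp before the start, 46.8% and 54.5% within 250 bp, and 57.5% and 58.0% further downstream. The island over the start had 57.7% of summed reads in siCon and 68.8% in siH19, at 114 cytosines. Over all 163 island cytosines of this gene the difference with each cytosine weighted the same in both libraries was 1.99 points. That set includes the other islands of the gene, so these values do not cover the same cytosines. An exonic island 46414 to 46707 bp into the gene had 85.8% in both libraries. A cluster just before that island, 46177 to 46202 bp from the start, was at 14.7% and 18.9%, so low and high methylation adjoined inside the gene. The noncoding gene Gm16136 overlaps this window.

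Krt8, the type II keratin of simple epithelia (chr15:101996698-102004482, minus strand), was almost fully methylated at its start, with 96.4% in siCon (93.9 to 98.0, 337 reads) and 95.6% in siH19 (91.5 to 97.7, 181 reads) over 8 cytosines within 250 bp. No cytosine there was below 80% in either library. The gene Gm36026 overlaps this window. The Krt8 body had 72.9% in siCon (70.3 to 75.4, 1178 reads) and 65.9% in siH19 (62.7 to 68.9, 891 reads). Krt18, its type I partner on the same chromosome (chr15:102028180-102032027, plus strand), had 72.5% in siCon (69.5 to 75.4, 896 reads) and 63.9% in siH19 (60.8 to 66.9, 956 reads) in its window, with the mixed levels before the RefSeq start shown above. More than 250 bp upstream Krt18 had 19.1% and 16.3%, on 3 cytosines. Krt19, a type I keratin (chr11:100140810-100146120, minus strand), had 45.8% in siCon (42.4 to 49.2, 832 reads) and 49.8% in siH19 (45.5 to 54.1, 514 reads), nearly all in an island 313 to 809 bp downstream of the start. Its body was at 90.3% and 90.9%, on 5 cytosines. No Krt19 cytosine was measured closer than 443 bp to its annotated start, and the gene record of Krt19 begins further upstream than the transcript used here, so the start itself was not covered.

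Cldn4, a tight junction claudin with a single exon (chr5:134945119-134946934, minus strand), had 81.0% in siCon (77.6 to 84, 568 reads) and 84.9% in siH19 (81.8 to 87.5, 609 reads) in its window. The island inside the exon, 265 to 804 bp from the start, was at 87.5% and 86.8%. The 4 cytosines of its body were too few for the minimum of 5. Cldn7 (chr11:69964779-69967885, plus strand) was lower, with 27.6% in siCon (24 to 31.5, 551 reads) and 26% in siH19 (21.0 to 31.6, 258 reads), all from 666 to 850 bp downstream of the annotated start and around its downstream RefSeq start. The Cldn7 body had 45.8% and 41.7%. The levels of neighbouring genes in this order overlapped in part: from Cdh1 through Esrp2 and Grhl2 to Krt19 the siCon interval of each gene met that of the next, whereas Esrp1, Cldn7, Epcam, Krt18, Cldn4 and Krt8 were each apart from both neighbours.

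The next comparison asked whether these regions differed between siH19 and siCon. No TSS window and no gene body of the epithelial genes was called. A call needed 10 percentage points or more and an adjusted p-value under 0.05, which was met by 120 of 19676 windows (0.610%) and 48 of 17670 bodies (0.272%). The test was the exact conditional Mantel-Haenszel test, two-sided, in which each cytosine is compared with itself and p-values are adjusted by Benjamini-Hochberg over all genes. The difference that goes with it gives a cytosine the same weight in both libraries. At an unadjusted p-value under 0.05 there were 2 of 10 windows and 3 of 9 bodies, where all genes had 19.8% and 11.9%. The median difference over the 10 windows was -0.17 points and over the 9 bodies 1.00 points, and over all genes it was 0.09 and 0.18 points.

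In the windows the differences ran from -3.18 points in Esrp1 to 6.27 points in Epcam, with 4 genes higher and 6 lower in siH19. Of all windows 55.1% were higher. The Esrp1 difference had a 95% interval of -5.88 to -0.47 and an exact p-value of 0.022, adjusted 0.159. The Epcam difference had an interval of -2.05 to 14.6 and an adjusted exact p-value of 0.443, and with 12 cytosines that interval reached past 10 points. The intervals of the other 9 windows stayed within 10 points either way. In Cdh1 the difference was -0.47 points (-3.65 to 2.71), in Esrp2 -0.04 points (-3.15 to 3.08) and in Grhl2 0.37 points (-2.18 to 2.92). In Krt8 it was -0.83 (-4.31 to 2.66), in Cldn4 -0.29 (-3.79 to 3.20), in Krt19 2.07 (-3.07 to 7.21) and in Cldn7 -1.45 points (-7.53 to 4.63).

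The Krt18 window was the clearest case in which summed reads and matched cytosines went opposite ways. Its summed reads differed by -8.63 points in siH19, while the matched difference was 3.69 points higher (0.26 to 7.12, exact p-value 0.040, adjusted 0.222). The reads were spread differently over the cytosines around the start. The 8 cytosines from 24 bp before to 15 bp after the annotated start, with levels from 11.8% to 77.8% in siCon, had 7 to 17 reads each in siCon and 18 to 43 in siH19. The next 5 minus-strand cytosines, starting 48 bp after it, at 96.3% or more in siCon, had 53 to 54 reads in siCon and 35 to 38 in siH19. Summed reads also gave larger differences of the same sign in the Grhl2 body, with 7.21 points against 1.91 points for matched cytosines (0.48 to 3.34, exact p-value 0.008, adjusted 0.191), and in the Esrp1 body, with -5.82 against -0.35 points (-3.12 to 2.41).

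**Figure D3:**
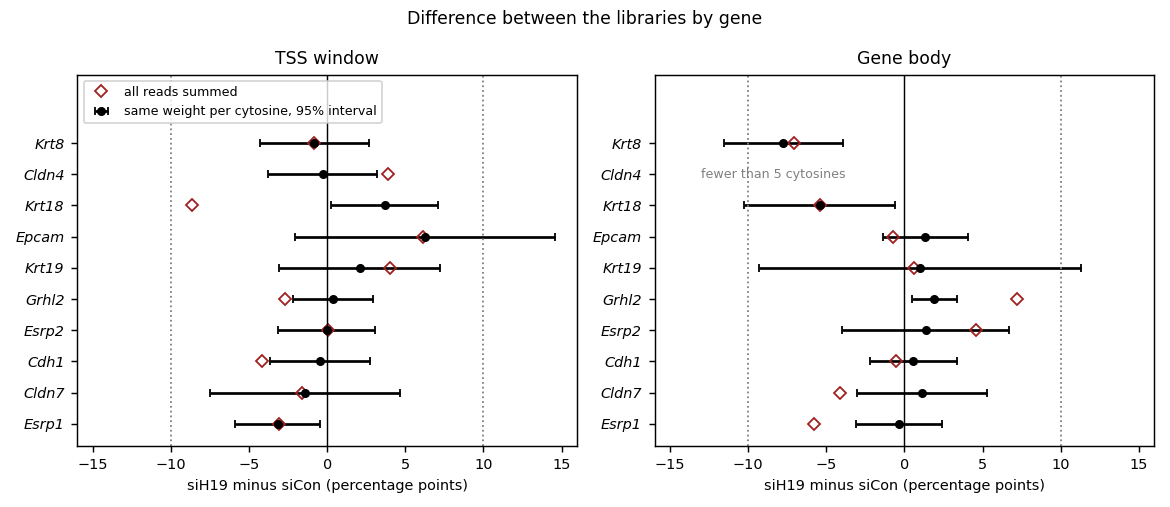
Difference in methylation, siH19 minus siCon (percentage points), for each TSS window and gene body; black points with 95% intervals give each cytosine the same weight in both libraries, open diamonds come from summed reads, and dotted lines mark 10 points either way. No black point lies beyond 10 points, and the diamond of the Krt18 window lies on the other side of 0 from its black point.

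Krt8 was the 1 body with an adjusted p-value under 0.05. Its level went from 72.9% in siCon to 65.9% in siH19, a matched difference of -7.74 points (-11.5 to -3.94, adjusted p-value 0.0111 by the exact test), which is under the 10 points set for a call. Of all bodies 1.19% had an adjusted p-value under 0.05 at any size, and 0.351% in the lower direction. The adjusted p-value was 0.137 when cytosines inside CCGG and TCGA were included and 1.00 in a quasi-binomial test over cytosines, and from 0.0041 to 0.0182 under the other 5 alternatives. The quasi-binomial test does not compare each cytosine with itself. It takes its error from the spread among cytosines, so it is less able to find a matched difference. Of its 3 body clusters of neighbouring cytosines, defined below, 1 had an interval of the difference that left out 0. At its 8 cytosines of 4 CpGs in the first intron, 1269 to 1294 bp from the start, siCon had 62.0% (57.9 to 65.9, 558 reads) and siH19 47.3% (42.4 to 52.3, 391 reads). All 8 were lower in siH19, and this cluster was picked out after its values were seen. Read depth was nearly the same at the 4 CpGs within each strand and library, so the same reads were probably counted at each. The 8 cytosines are thus not 8 separate observations, and the intervals of this cluster may be too narrow. The adjusted p-value of the Krt8 body may be too small for the same reason. The next cluster, 1410 to 1563 bp from the start, had 82.3% and 80%, with 5 cytosines lower and 5 higher.

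To look for other local differences, cytosines no more than 100 bp apart were joined into clusters of at least 4. The 10 genes had 64 clusters that held 821 of the 920 cytosines, with siCon levels from 1.59% to 97.2%. The unadjusted 95% interval of the difference left out 0 in 8 of the 64, or 12.5%, and in 12.3% of 127937 clusters over the genome. Of the 64 clusters, 6 had an interval above 0, meaning higher in siH19, as did 9007 of the 127937 (7.04%). The interval was below 0 in 2 of the 64 and in 6684 of the 127937 (5.22%). In 5 of the 64 the interval left out 0 and the difference was 10 points or more, as in 6229 of the 127937 (4.87%). Grhl2 held 3 of the 8: 554 to 638 bp from the start (35.5% in siCon, 51.7% in siH19), 1341 to 1571 bp (59.6% and 73.6%) and 19214 to 19263 bp (17% and 42.2%). The cluster of the Grhl2 body with the most reads, at 1341 to 1571 bp, had a matched difference of 6.31 points (3.71 to 8.91), smaller than its summed reads show. Cdh1 had 46.5% and 60.9% at 601 to 673 bp, Krt19 had 36.4% and 48.0% at 443 to 453 bp, Esrp2 had 70.8% and 76.8% at 957 to 1042 bp, and Esrp1 had 34.3% and 27.7% at -752 to -559 bp. These values are descriptions of chosen clusters.

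At single cytosines, 19 of the 920 differed strongly between the libraries, by 33 points or more and with a two-sided Fisher's exact p-value under 0.05. That is 2.07%, against 0.987% of all cytosines. Of the 920, 10 were higher in siH19 and 9 lower, and of all 1850635, 9625 (0.520%) and 8644 (0.467%). Levels from 20% to 80% in siCon were more frequent in the 10 genes than over all genes. They were found at 56.6% against 13.1% of window cytosines and at 49.6% against 32.4% of body cytosines. Whether this bears on the share of strong differences was not tested. None had an adjusted p-value under 0.05 by Fisher's exact test, where 120 of all 1850635 cytosines (0.00648%) did, and 45 of the 920 had an unadjusted p-value under 0.05 (2.53% of all cytosines). The lowest adjusted p-value was 0.358. Of the 19, 7 lay in TSS windows and 12 in bodies, with 7 in Grhl2, 4 in Esrp1, 3 in Cdh1, 2 each in Epcam and Cldn7, 1 in Esrp2 and none in the keratins or Cldn4.

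Of the 6 higher cytosines with the lowest p-values, 3 were in Grhl2. In its first intron, at position 37234254 of chromosome 15 on the plus strand, siCon had 0% of 10 reads and siH19 60.0% of 20. The cytosine of the same CpG on the minus strand went the other way, from 75% of 16 reads to 21.4% of 28, and is among the 6 lower ones. Its neighbour at 37234246 had 40.0% and 90.0%, and a cytosine at 37243102 had 30.0% and 88.9%. Cldn7 had the others of this direction together with Esrp1: 0% and 71.4% at 69965889 of chromosome 11, where the plus strand had 80% and 60.0%, then 14.3% and 50% at 69966168, and in Esrp1 28.6% and 100% at 11365130 of chromosome 4, on 7 reads in each library.

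The lowest p-value of all, 0.000187 by Fisher's exact test, belonged to an intronic cytosine of Esrp1 at 11376186, with 83.3% of 12 reads in siCon and 21.1% of 38 in siH19. Its partner on the minus strand had 40.0% and 33.3%. A pair of cytosines upstream of Esrp1, at 11387346 and 11387348, went from 47.8% to 5.26% and from 65.2% to 26.3%. The remaining lower ones were Grhl2 at 37260572, from 64.7% to 31.2%, and Epcam at 87636982 of chromosome 17, from 50% to 5.56%. The opposite strand of the same CpG was covered at 17 of the 19, and it differed in the same direction at 9 and in the opposite direction at 8.

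**Figure D4:**
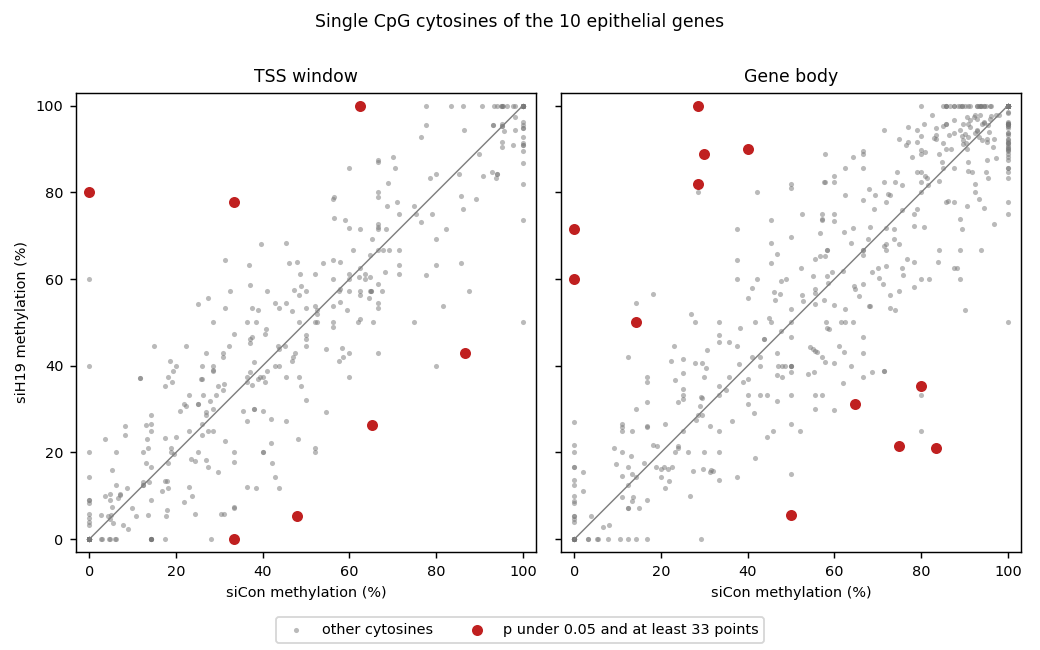
Methylation (%) of each CpG cytosine of the 10 genes in siCon (x) and siH19 (y), in TSS windows and gene bodies; red points differ by 33 points or more with p under 0.05, and the line marks equal levels. The 19 red points lie on both sides of the line, 10 above and 9 below.

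In the 10 genes, the strands of a CpG and the libraries differed about as often at an exact p-value under 0.05. Strong differences were more frequent between strands. At the 400 CpGs with both strands measured, the strands differed with an exact p-value under 0.05 at 21 CpGs in siCon (5.25%) and 25 in siH19 (6.25%). They differed strongly at 12 (3%) and 14 (3.5%). Between the libraries the same CpGs gave 23 on the plus strand (5.75%) and 20 on the minus strand (5.00%), and 9 (2.25%) and 8 (2%) strong ones. The median absolute difference was 8.42 and 7.32 points between strands and 7.86 and 7.72 points between libraries. Over all 755414 such CpGs the share with a p-value under 0.05 was 3.51% and 3.28% between strands and 2.55% and 2.52% between libraries. The share of strong differences over all was 1.67% and 1.35% between strands and 0.853% and 0.839% between libraries. As a description across cytosines of the same 2 libraries, Pearson's r between siCon and siH19 was 0.915 over the 738 cytosines of the 10 genes with at least 10 reads, and 0.968 over 1442265 in all.

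Other genes of the same biology were taken as lists: 45 further epithelial genes (junctions, keratins, regulators, surface and traffic proteins) and 14 mesenchymal genes. The wider epithelial list had 33 measured windows with a median of 28.2% in siCon and 27.9% in siH19, and 17 of the 33 were at or above 25%. Its highest windows were those of Mir141 (95.6% and 94.7%) and Mir200c (90.6% and 84.6%), microRNAs that repress Zeb1 and Zeb2, and of the claudin Cldn6 (88.4% and 88.3%). Its lowest were Klf5 (0.458% and 0.736%), a zinc finger transcription factor, Jup (1.10% and 2.54%), the junction protein plakoglobin that muscle also uses, and Grhl1 (1.53% and 1.24%), a Grainyhead factor. The mesenchymal list had 9 measured windows with a median of 0.598% and 0.708%. Its lowest were Zeb2 (0% of 346 reads, which allows up to 0.867% if 3 counts are taken as the limit of a count of 0, and 0.526% in siH19), Fn1 (0.321% and 0.643%), which encodes fibronectin, and Cdh2 (0.463% and 1.29%), N-cadherin. Its highest were Cdh11 (60.3% and 51.1%), a mesenchymal cadherin, and the transcription factors Twist1 (35.2% and 33.3%) and Twist2 (10.1% and 4.87%). The repressor Zeb1 was at 1.00% and 0.374%, and Snai1 at 0.598% and 0.708%. A siCon level of at least 10% was found in 75.8% of the wider epithelial windows and in 33.3% of the 9 mesenchymal ones, and in 39.4% of all windows, so the mesenchymal share was near that of all genes.

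No window of the wider epithelial or mesenchymal lists was called, against 0.610% of all windows. At an adjusted p-value under 0.05 of any size, by the exact test, there were 2 of 33 epithelial and 1 of 9 mesenchymal windows, against 6.89% of all. They were Jup (1.23 points, adjusted p-value 0.0204), Marveld3, a tight junction protein named here after its values were seen (65.4% and 54.5%, -5.87 points, 0.00714), and Cdh2 (1.01 points, 0.00093). In siH19 19 epithelial windows were higher and 14 lower, and 6 mesenchymal windows were higher and 3 lower. Of all windows 55.1% were higher. The differences of the epithelial list ran from -6.97 to 8.06 points.

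**Figure D5:**
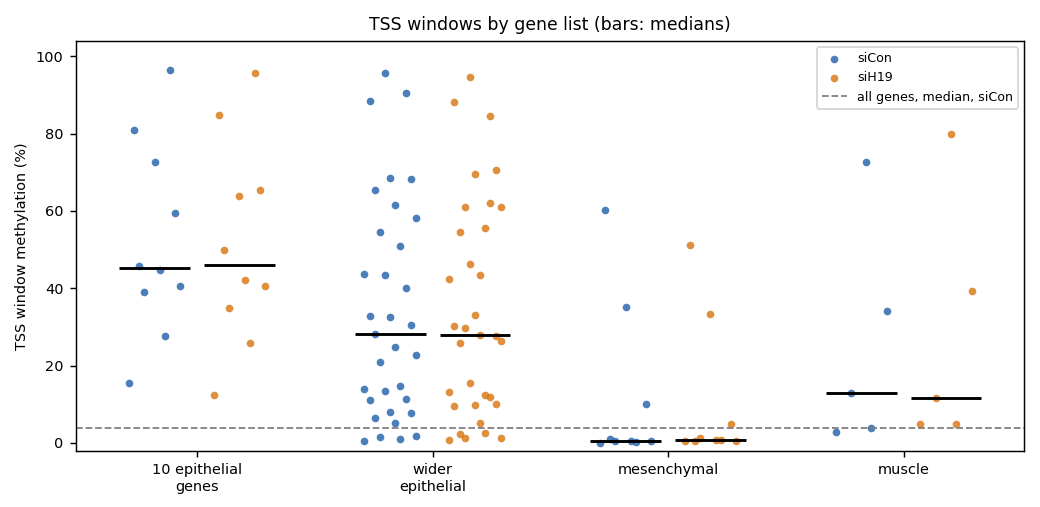
TSS window methylation (%) of each measured gene in 4 lists, in siCon and siH19, with bars at the list medians and a dashed line at the median of all genes in siCon. The 10 epithelial genes have a median of 45.3% in siCon, the wider epithelial list 28.2% and the mesenchymal list 0.598%, and the bars of the libraries lie side by side in each list.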

How the data were processed

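Bisulfite sequencing of MspI and TaqαI fragments gave CpG methylation in 1 siCon and 1 siH19 library of mouse C3H myotubes. The authors' methods name Bismark, run as non-directional, with filled-in nucleotides trimmed off before calling. The labels name build mm10 and bcl2fastq 1.8.4, and removal of duplicates was not given in the sources used here. The deposited files held, per cytosine and strand, methylated and total read counts as text (unit "other", not normalized) and a score, the methylated fraction up to 1000, which matched the counts in 100% of entries and was used for nothing else. All 4668101 cytosines in both libraries lay on CpGs of GRCm38.

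Cytosines had at least 5 reads in each library and lay outside CCGG and TCGA, since the enzymes cut there and read ends are filled in. Strands were kept apart. Genes came from GENCODE vM21 (basic transcripts), and the gene start was the 5′-most basic transcript. A region needed at least 5 cytosines. CpG islands were computed with a minimum length of 200 bp, GC content of 50% and observed over expected CpGs of 0.6. Tests were Fisher's exact test per cytosine and the exact conditional Mantel-Haenszel test per region (Python 3.11.15, SciPy 1.17.1), adjusted by Benjamini-Hochberg over all cytosines or genes, and were tried on simulated data. Intervals are Wilson 95% intervals for levels and Mantel-Haenszel 95% intervals for differences. Reads carry no molecular identifiers, so intervals and p-values cover counting error only. A read that spans several cytosines is counted at each of them. Intervals and region tests take these counts as independent, so intervals may be too narrow and p-values too small.

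All 10 genes were named. Of the strongly changed cytosines, the 6 with the lowest p-value in each direction were named, since there were more than 12, and of the wider lists any called window and the 3 highest and 3 lowest siCon levels. The genes and lists were chosen with earlier results of these data known. Alternatives were a minimum of 10 reads, cutting sites included, strands summed, repeats left out, windows of 500 bp, Fisher's exact test on summed reads, a quasi-binomial test, and a minimum of 25 points. Promoters of Cdh1, Esrp1, Esrp2, Grhl2 and Krt19 are not printed here.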

Additional observations from a re-analysis of the deposited data

How the results depend on the processing

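No epithelial gene window or body was called under any of the 7 alternatives. Neither Fisher's exact test on summed reads nor the quasi-binomial test compares each cytosine with itself. No paired analysis was possible because each group had 1 library, and leaving out a replicate was impossible for the same reason. Strongly changed cytosines numbered 19 of 920 in the main setting (2.07%, against 0.987% of all). With at least 10 reads there were 12 of 738 (1.63%, against 0.773% of all). With cutting sites included there were 31 of 1483 (2.09%, against 1.42% of all). With strands summed there were 8 of 536 CpGs (1.49%, against 0.744% of all). At a minimum of 25 points there were 30 of 920, and no share over all cytosines is given for that minimum. With cutting sites included 1 of the 1483 cytosines had an adjusted p-value under 0.05: a TCGA cytosine of Grhl2, picked out after its values were seen, with 100% of 20 reads in siCon and 38.5% of 13 in siH19 (Fisher's exact test, adjusted p-value 0.0429). The share of all cytosines under 0.05 in that setting is not given here. The median window level in siCon was 43.4% with at least 10 reads, 50.8% with cutting sites, 50% in windows of 500 bp and 47.8% as a mean over cytosines, against 45.3%. The median body level was 68.5% with cutting sites, 62.1% with windows of 500 bp and 66.6% as a mean over cytosines, against 63.9%. The median body difference was -0.72 points from summed reads, against 1.00. Fisher's exact test on summed reads called 3 windows of the wider lists, Tjp3 (40.1% and 62.1%), Marveld3 (65.4% and 54.5%) and Ap1m2 (61.5% and 43.5%), where the matched test called none. The share of all windows called from summed reads is not given here, so these 3 cannot be set against it.

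Of 130 recomputed differences of single genes, 19 changed sign. From summed reads the window differences were 0.0716 points in Esrp2, -2.70 in Grhl2, -8.63 in Krt18 (adjusted p-value 0.00136 by Fisher's exact test) and 3.91 in Cldn4, and the body differences -0.563 in Cdh1, -0.723 in Epcam and -4.11 in Cldn7. With cutting sites they were 0.101 in the Cdh1 window, 0.994 in the Esrp2 window, 1.08 in the Esrp1 body and -1.62 in the Esrp2 body. As means over cytosines they were 1.40 in the Esrp2 window and -0.815, -0.700 and 0.407 in the Cdh1, Epcam and Esrp1 bodies. The rest were 0.554 in the Cdh1 window without repeats, 0.356 in the Esrp2 window with strands summed, -0.155 in the Grhl2 window with at least 10 reads and -1.62 in the Krt19 body with windows of 500 bp. The cause was not tested, except that summed reads also carry the different spread of reads over cytosines. Depth at single cytosines was a median of 21 and 20 reads, and none passed the adjustment over all cytosines, where 120 of all cytosines did.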

Other observations

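The muscle list, with 5 of 6 windows measured, had siCon levels of 2.70% for Ckm, 3.98% for Des, 12.8% for Acta1, 34.1% for Myod1 and 72.7% for Myog, the last on 6 cytosines. All 5 were slightly higher in siH19, by 0.09 to 3.78 points, where 55.1% of all windows were higher, and none was called. In the gene bodies, Acta1, which encodes skeletal actin, went from 31.1% to 37.0%. Its matched difference was 9.27 points (adjusted p-value 2.19e-05 by the exact Mantel-Haenszel test), under the 10 points set for a call. Acta1 was picked out after its values were seen, as the 1 of 4 measured muscle bodies with an adjusted p-value under 0.05. Of all bodies 1.19% had an adjusted p-value under 0.05 at any size. All 4 muscle bodies were higher in siH19, where 53.9% of all bodies were higher. The test took counts as independent, although a read was counted at every cytosine that it spans.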
